A study of Mus musculus with 19 samples.

Results

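The genes described here are Wiz and 6 genes whose products are found with it in or around the G9a/GLP complex: Ehmt2, Ehmt1, Zfp644, Cdyl, Ctbp1 and Ctbp2. They were chosen by name and not by a filter on their values, though with earlier results of these data known. Each symbol matched 1 of the 41388 Ensembl genes counted in the RNA-seq tables. All 7 passed the filter on low counts in each comparison. The question was whether loss of 1 functional Wiz allele was accompanied by a change in the transcripts of the partners, and how the levels of the 7 genes differed between embryonic and adult neural tissue.

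RNA-seq read counts were available for 16 samples from mice of the FVB strain. Whole brains of embryos at 13.5 days post coitum (E13.5) came from males, 3 Wiz+/+ (WT) and 3 WizMommeD30/+ (Het), and from females, 2 WT and 2 Het. Cerebellums came from males at 56 days post partum, 3 WT and 3 Het. A Wiz ChIP-seq experiment of 3 samples in the same series was not analysed here. MommeD30 is an allele from an ENU mutagenesis screen, a single-base deletion that shifts the reading frame and introduces a premature stop, and it is present in every cell of the animal. The line was kept by crossing carriers to Line3, an FVB/NJ strain homozygous for a multicopy GFP transgene under a human α-globin promoter and enhancer, so that background is common to both genotypes. The embryos came from matings between heterozygotes. A single mutant allele in 1 line was measured, and the study calls the samples of a group biological replicates, but the litters were not given in the sources used here.

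G9a (encoded by Ehmt2) and GLP (encoded by Ehmt1) form a heterodimer that mono- and dimethylates lysine 9 of histone H3, a mark associated with transcriptional repression in euchromatin. Wiz is a protein with widely spaced C2H2 zinc fingers that binds the heterodimer and helps to place it on DNA, and Zfp644 is another zinc finger protein that binds it. Cdyl is a chromodomain protein that recognises methylated lysine 9, while Ctbp1 and Ctbp2 are paralogous corepressors that are recruited by short peptide motifs, including those in Wiz. In the nervous system, reduced dosage of GLP in humans causes Kleefstra syndrome, a developmental disorder with intellectual disability.

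In the GENCODE M21 annotation of GRCm38 (mm10), Wiz (ENSMUSG00000024050) lies on the minus strand at chr17:32354055-32389439 and Ehmt2 (ENSMUSG00000013787) on the plus strand of the same chromosome at chr17:34898469-34914052. Ehmt1 (ENSMUSG00000036893) lies at chr2:24789928-24919614, Zfp644 (ENSMUSG00000049606) at chr5:106616739-106697287 and Ctbp1 (ENSMUSG00000037373) at chr5:33247723-33274994, all on the minus strand. Cdyl (ENSMUSG00000059288) lies on the plus strand at chr13:35659833-35874063 and Ctbp2 (ENSMUSG00000030970) on the minus strand at chr7:132987563-133124354. The exons of Wiz share 2099 bases, 22.7% of their length, with the antisense genes Gm26858 and Gm22201, both of which are listed with a count of 0 in every sample. How reads over such shared bases were assigned is not given in the sources used here.

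Wiz, Ehmt2 and Ehmt1 had the largest differences between the tissues below, all in the same direction, so the 250 bases before their furthest upstream annotated start are shown (RefSeq, GRCm38.p6, 5′ to 3′ on the strand of the gene). All 7 genes had at least 1 start in that table. Capitals mark matches on either strand to the GC box GGGCGG, the E box CACGTG or the CCAAT box CCAAT.
Wiz (chr17:32389407-32389656, minus strand): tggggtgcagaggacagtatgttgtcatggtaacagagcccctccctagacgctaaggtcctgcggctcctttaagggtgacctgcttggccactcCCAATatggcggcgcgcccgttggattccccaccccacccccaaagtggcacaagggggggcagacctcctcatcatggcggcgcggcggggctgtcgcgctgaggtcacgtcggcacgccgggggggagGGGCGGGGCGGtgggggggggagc
Ehmt2 (chr17:34898224-34898473, plus strand): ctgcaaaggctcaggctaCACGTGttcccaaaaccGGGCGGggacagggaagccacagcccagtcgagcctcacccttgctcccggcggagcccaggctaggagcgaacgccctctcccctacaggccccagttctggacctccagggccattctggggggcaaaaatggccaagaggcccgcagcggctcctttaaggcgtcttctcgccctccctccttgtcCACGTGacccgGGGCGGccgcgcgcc
Ehmt1 (chr2:24919610-24919859, minus strand): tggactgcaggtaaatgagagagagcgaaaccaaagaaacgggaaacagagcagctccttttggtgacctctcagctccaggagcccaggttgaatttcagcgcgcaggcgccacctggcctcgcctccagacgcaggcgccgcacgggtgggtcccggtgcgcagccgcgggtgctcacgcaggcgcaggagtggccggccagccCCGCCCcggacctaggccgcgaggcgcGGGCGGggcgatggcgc
The windows held 18 CpG dinucleotides for Wiz, 18 for Ehmt2 and 26 for Ehmt1, against a median of 6 over the 32817 windows of the same length. Each had 2 GC boxes, which overlap each other in Wiz, where 32.7% of all windows have at least 1. The Ehmt2 window also had 2 E boxes (present in 6.02% of all windows) and the Wiz window 1 CCAAT box (33.8%). The windows of Cdyl and Ctbp2, the members that were not lower in cerebellum under TMM scaling, had 2 CpG dinucleotides each and no GC box. Those of Zfp644 and Ctbp1 had 6 and 31 CpG dinucleotides and 1 and 2 GC boxes. Wiz had 4 starts in that table, Cdyl 3, and Ehmt2, Zfp644 and Ctbp2 had 2 each, of which 1 each was used. The Ctbp2 window, at chr7:133081861-133082110, and the Zfp644 window, at chr5:106696831-106697080, lie inside the spans given above for these genes. Which starts are in use in these tissues was not tested. A match is a description of the letters only.

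Depth ran from 16386029 counts in the second WT male brain to 50459755 counts. The counts on a member in any 1 sample were between 245, for Cdyl, and 14655, for Ctbp1. Levels are given as CPM, the counts of a gene scaled to a library of common size, after TMM scaling over all 16 samples. The tissue labels were borne out by markers: 5 Purkinje cell markers summed to between 6961.8 and 7431.9 CPM in cerebellum against at most 60.6 CPM in E13.5 brain, and 6 proliferation markers summed to between 729.1 and 1103.3 CPM in E13.5 brain against at most 51.8 CPM in cerebellum. The granule cell marker Gabra6 was under 0.1 CPM in each E13.5 brain group.

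Wiz transcripts were lower in Het than in WT tissue at both stages, and no Het sample reached the level of a WT sample of its tissue. In male E13.5 brain, Wiz stood at 172.6, 189.9 and 177.9 CPM in the WT samples and at 111.7, 119.0 and 116.4 CPM in the Het samples. In female E13.5 brain it stood at 175.8 and 183.9 CPM in WT and at 121.7 and 120.0 CPM in Het. In cerebellum the WT values were 105.3, 104.9 and 104.4 CPM and the Het values 73.9, 73.1 and 74.7 CPM. The groups were separated in all 3 sets of samples, and the Het brains, at 111.7 to 121.7 CPM, were still above the WT cerebellums. Between neighbouring groups in the order of Wiz levels, overlap was found between WT male and WT female brain and between no other pair.

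Expressed as a ratio of Het to WT, Wiz was at 0.644 (95% interval 0.606 to 0.686) in male brain, 0.672 (0.620 to 0.729) in female brain and 0.706 (0.674 to 0.739) in cerebellum. The decrease was larger than the spread between replicates in each case. In male brain the log2 fold change was -0.63 ± 0.04 (SE, n = 3 and 3) with an adjusted p of 1.3e-05 by the quasi-likelihood test of edgeR, with a background of 0.196% of 16848 genes called at an adjusted p up to 0.05. In female brain it was -0.57 ± 0.05 (n = 2 and 2; edgeR adjusted p = 0.014; background 0.111% of 17152 genes), and in cerebellum -0.50 ± 0.03 (n = 3 and 3; edgeR adjusted p = 9.9e-08; background 5.25% of 15979 genes). The female call was lost without the first Het brain (-0.59, edgeR adjusted p = 0.424) or without the second (-0.56, edgeR adjusted p = 0.313), with the direction kept. Over all 10 brains with sex as a covariate, Wiz fell by 0.61 on the log2 scale (SE 0.03, edgeR adjusted p = 3.2e-07; background 0.485% of 17332 genes). Marker sums also lay apart between the female groups: 6 proliferation markers summed to 729.1 and 907.0 CPM in WT against 988.6 and 1011.4 CPM in Het, 8 progenitor markers to 1339.4 and 1542.7 against 1605.5 and 1718.1 CPM, 6 blood markers to 1205.9 and 1253.2 against 1117.8 and 1139.6 CPM, and 5 granule cell markers to 96.8 and 100.2 against 88.4 and 88.6 CPM. The sums of the Purkinje list, the glial list and the list with vessel markers overlapped between the female groups. In male brain the Purkinje list alone lay apart, at 50.3 to 52.7 CPM in WT and 58.0 to 60.6 CPM in Het. Single genes lay apart between genotypes for 36.0% of those tested in female brain and 12.4% in male brain. The part of the marker lists in the brain results was not tested. Read counts do not separate transcripts of the mutant allele from those of the WT allele, and in whole tissue fewer cells of a type and less RNA per cell cannot be told apart.

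**Figure D1:**
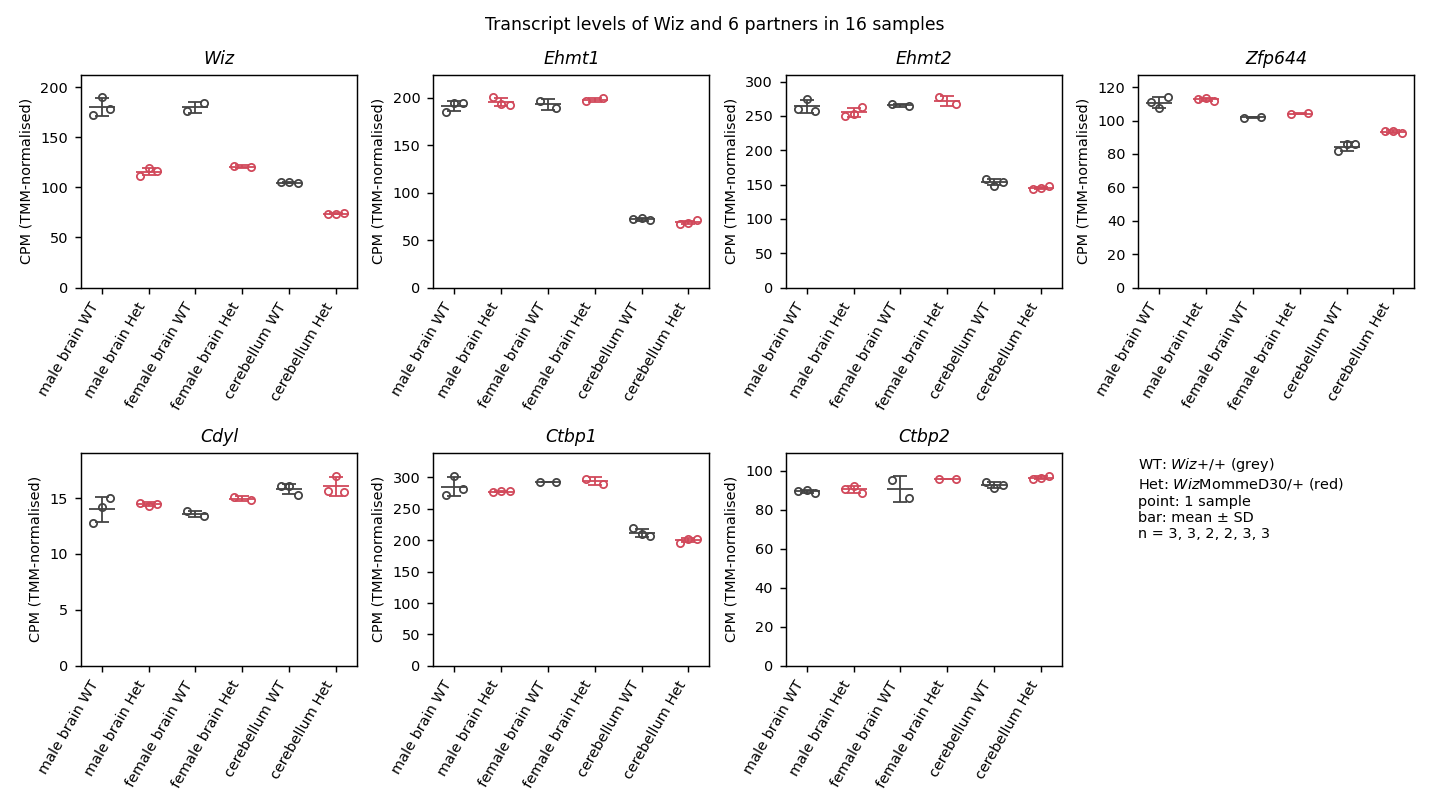
Level of each of the 7 genes in CPM (y axis, from 0) in each of the 16 samples, by sex, tissue and genotype (x axis). Points are samples, bars are means ± SD, grey is WT and red is Het. Wiz is lower in Het in all 3 sets, with 73.1 to 74.7 CPM in Het cerebellum against 104.4 to 105.3 CPM in WT cerebellum, and Ehmt1 shows the widest gap between tissues.

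In E13.5 brain, none of the 6 partners passed the test between genotypes, in males, in females or over both sexes, by edgeR or by DESeq2, and none had an unadjusted p under 0.05 in the edgeR fits, where 8.45%, 6.40% and 12.0% of all genes did, so that 0 of 6 is near the background. The catalytic subunit gene Ehmt2 stood at 260.2, 274.7 and 257.4 CPM in WT male brain and at 250.0, 252.9 and 262.8 CPM in Het male brain. In female brain the order was the opposite, with 266.7 and 264.2 CPM in WT and 277.0 and 266.7 CPM in Het. The Ehmt2 values of the genotypes overlapped in males and met in females, and over both sexes the difference of Het minus WT was -0.01 on the log2 scale (95% interval -0.08 to 0.05).

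Ehmt1, which encodes the other subunit of the methyltransferase, stood at 185.0, 194.5 and 194.8 CPM in WT male brain and at 200.5, 193.2 and 192.6 CPM in Het male brain. In female brain it was at 196.9 and 189.2 CPM in WT and at 196.2 and 199.6 CPM in Het. The genotypes overlapped in both sexes, and the difference over both was 0.04 (95% interval -0.02 to 0.09).

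Zfp644 was at 111.2, 107.3 and 113.9 CPM in WT male brain and at 112.8, 113.7 and 111.6 CPM in Het male brain, and at 101.6 and 102.2 CPM against 103.8 and 104.6 CPM in females. The male values overlapped and the female values did not, by a margin of under 2 CPM. Over both sexes the difference was 0.03 (95% interval -0.02 to 0.08). Cdyl, at 12.8 to 15.1 CPM in all brains, had the widest interval, with a difference of 0.09 (95% interval -0.02 to 0.20). For the corepressors the differences over both sexes were -0.02 (95% interval -0.08 to 0.05) for Ctbp1 and 0.04 (95% interval -0.02 to 0.11) for Ctbp2.

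For the 6 partners together, the 95% intervals over all 10 brains reached no lower than -0.08 and no higher than 0.20, while that of Wiz ran from -0.68 to -0.54. The smallest edgeR adjusted p of a partner in this fit was 0.503, for Cdyl. Their median difference was 0.03, beside a median of 0.00 over all genes tested. Each interval is for 1 gene and measures only the spread between these samples. In female brain alone that of Cdyl was wider, from -0.07 to 0.34. The intervals give the range of change in whole brain that fits these samples best, and do not show that the levels are equal.

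In cerebellum, Zfp644 was the only partner that passed the test, and it rose. Its level was 81.5, 86.0 and 85.7 CPM in the WT samples and 93.8, 93.9 and 92.4 CPM in the Het samples. Each Het sample was above each WT sample, and the Het samples lay closer together. The log2 fold change was 0.15 ± 0.04 (SE, n = 3 and 3), a ratio of 1.11 (95% interval 1.05 to 1.17), with an edgeR adjusted p of 0.0189 and a background of 5.25% of genes called. Over the alternatives tried, this adjusted p ran from 0.00743 to 0.0778. The call was lost without the first Het sample (0.15, edgeR adjusted p = 0.0778), without the first WT sample (0.12, edgeR adjusted p = 0.0705) and without the third WT sample (0.16, edgeR adjusted p = 0.0651). The change is within the limits of 0.7 and 1.3 on the ratio that the study set for its calls. So is the Wiz ratio of 0.706 in cerebellum. With those limits 0.832% of genes and no member were called in the edgeR fit. The study, which used DESeq with the same limits, did count Wiz among the genes decreased in cerebellum.

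The remaining partners did not pass the test in cerebellum. Ehmt2 stood at 157.8, 148.3 and 154.3 CPM in WT and at 144.0, 144.3 and 147.3 CPM in Het, and Ctbp1 at 219.4, 209.9 and 207.0 CPM in WT and at 196.3, 201.9 and 201.3 CPM in Het. For both genes the Het samples lay below each WT sample, with differences of -0.08 (95% interval -0.14 to -0.01, edgeR adjusted p = 0.157) for Ehmt2 and -0.08 (95% interval -0.14 to -0.02, edgeR adjusted p = 0.108) for Ctbp1. Ctbp2, at 91.1 to 94.2 CPM in WT and 95.5 to 97.4 CPM in Het, had a difference of 0.06 (95% interval -0.01 to 0.13). Ehmt1, at 70.7 to 73.3 CPM in WT and 67.5 to 70.7 CPM in Het, had a difference of -0.06 (95% interval -0.14 to 0.01). Cdyl, at 15.3 to 16.1 CPM in WT and 15.5 to 17.0 CPM in Het, had one of 0.02 (95% interval -0.12 to 0.15). Of the 6 partners, 3 (Zfp644, Ehmt2 and Ctbp1) had an unadjusted p under 0.05 in the edgeR fit, where 19.9% of all genes did.

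The genotypes did not overlap for 5 of the 7 genes in cerebellum (Wiz, Ehmt2 and Ctbp1 lower in Het, Zfp644 and Ctbp2 higher), where this held for 24.0% of all genes tested. In male brain they were apart for Wiz alone, against 12.4% of all genes, and over both sexes again for Wiz alone, against 1.63%. In the smaller female groups they were apart for 4 of the 7 (Wiz, Zfp644, Cdyl and Ctbp2), against 36.0% of all genes.

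Markers of blood and of other cells moved with genotype in the same cerebellums. The 6 blood markers summed to between 160.0 and 249.1 CPM in WT and between 290.5 and 528.1 CPM in Het, and 4 of the 5 that could be tested rose, among them Alas2 (log2 fold change 1.08, edgeR adjusted p = 0.00325), a gene of haem synthesis in red cells. The remaining list member, Hbb-y, was under 0.1 CPM in each cerebellum. The 6 glial markers summed to between 4838.5 and 5176.5 CPM in WT and between 4659.3 and 4900.6 CPM in Het, with Mbp of myelin lower (-0.17, edgeR adjusted p = 0.013), Gfap of astrocytes lower (-0.19, edgeR adjusted p = 0.0125) and Gdf10 of Bergmann glia higher (0.12, edgeR adjusted p = 0.0221). The Purkinje sums, 6961.8 to 7399.9 CPM in WT and 7270.9 to 7431.9 CPM in Het, overlapped. Of the 5 granule cell markers, Cbln3 rose (0.12, edgeR adjusted p = 0.0313) and the other 4 did not pass the test, with differences of 0.08 for Fat2 and of -0.05, -0.05 and -0.07 for Gabra6, Cbln1 and Etv1, and the sums of the list overlapped. In the list named for embryonic progenitors, 3 of the 6 genes that could be tested fell in Het. These were Nes (-0.38), Eomes (-0.26) and Sox2 (-0.23), with edgeR adjusted p of 0.0102, 0.0141 and 0.0395. Hes5 (-0.32), Pax6 (-0.03) and Vim (0.06) did not pass. The sums of the list overlapped, at 468.6 to 480.1 CPM in WT and 441.4 to 475.9 CPM in Het. The list is named for its genes in the embryo, and Pax6 was at 140.9 CPM in WT cerebellum against 96.4 CPM in WT male brain. Cldn5 of endothelium (-0.26, edgeR adjusted p = 0.0356) and Col1a1 of fibroblasts (-0.30, edgeR adjusted p = 0.0201) fell as well. The other 4 markers of their list did not pass. The second Het cerebellum stood apart in the list of vessel, microglia, choroid plexus and fibroblast markers, at 1058.3 CPM against 1878.9 to 2157.9 CPM in the other 5, where Ttr, a gene of the choroid plexus, was at 963.7 CPM against 1771.3 to 2009.9 CPM in WT. Of the 13 marker calls, only that of Alas2 held under each alternative (highest edgeR adjusted p 0.0256). The other 12 were lost under at least 1, with highest adjusted p from 0.0838 for Nes to 0.598 for Gdf10, and 10 of them were lost without the first Het and 10 without the third WT sample. The part of these markers in the Zfp644 result was not tested, and without the second Het sample Zfp644 remained called (0.15, edgeR adjusted p = 0.0466).

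**Figure D2:**
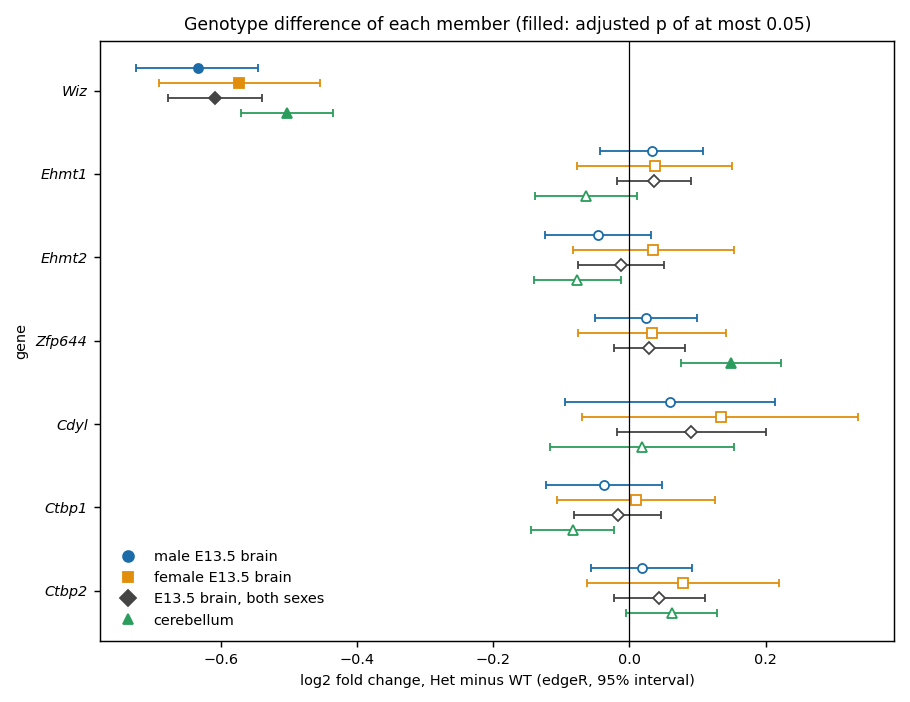
Log2 fold change of Het minus WT (x axis) for each of the 7 genes (y axis) in male brain, female brain, brain of both sexes and cerebellum, from the edgeR fits. Bars are 95% intervals and filled symbols passed the test. Wiz lies between -0.63 and -0.50 in the 4 fits, and Zfp644 in cerebellum is the only filled symbol of a partner.

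Whether the genotype difference itself differed between male E13.5 brain and cerebellum was tested with a genotype by tissue term, and none of the 7 genes passed after adjustment by edgeR or DESeq2, with a background of 0.260% of 17337 genes called. For Wiz the difference in cerebellum was smaller than in brain by 0.13 on the log2 scale (95% interval 0.02 to 0.23, edgeR adjusted p = 0.385). The term was 0.12 for Zfp644 (95% interval 0.01 to 0.23, edgeR adjusted p = 0.436) and -0.10 for Ehmt1 (95% interval -0.20 to 0.00, edgeR adjusted p = 0.503). Without adjustment these 3 genes had p of 0.0192, 0.0278 and 0.0466 by the same edgeR test, where 9.72% of all genes had a p of at most 0.05. The rise of Zfp644 in cerebellum was therefore not shown to differ from the difference of 0.02 in male brain.

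The levels of the 7 genes were also compared between WT male E13.5 brain and WT cerebellum. Of the 7, 5 were lower in cerebellum, Cdyl was higher and Ctbp2 did not pass the test, where 86.5% of 16840 genes were called, 42.9% higher and 43.6% lower. A share of 6 of 7 called is thus near that of all genes. With the limits of 0.7 and 1.3 on the ratio, Wiz, Ehmt1 and Ehmt2 were called, beside 69.3% of all genes. Age, brain region and dissection differ together in this comparison and cannot be told apart.

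Ehmt1 had the largest difference. It stood at 185.0, 194.5 and 194.8 CPM in WT male brain and at 71.8, 73.3 and 70.7 CPM in WT cerebellum, a log2 fold change of -1.41 ± 0.04 (SE, n = 3 and 3, edgeR adjusted p = 2.1e-14). Ehmt2 fell from 257.4 to 274.7 CPM in brain to 148.3 to 157.8 CPM in cerebellum (-0.78 ± 0.04, edgeR adjusted p = 2.9e-11), and Wiz by almost the same amount (-0.78 ± 0.04, edgeR adjusted p = 3.9e-11). The samples of the tissues did not overlap for any of the 7 members, so this does not set these 3 genes apart. Most genes differed here, with 86.5% of those tested called.

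The other members differed less. Ctbp1 was lower in cerebellum by 0.43 on the log2 scale (95% interval of the change -0.51 to -0.34, edgeR adjusted p = 1.2e-07) and Zfp644 had a change of -0.39 (95% interval -0.48 to -0.30, edgeR adjusted p = 3.8e-07). Cdyl stood at 12.8, 14.2 and 15.0 CPM in brain and at 16.1, 16.1 and 15.3 CPM in cerebellum (0.19, 95% interval 0.03 to 0.35, edgeR adjusted p = 0.0268). That call was lost without the first WT brain (0.12, edgeR adjusted p = 0.146), without the first WT cerebellum (0.19, edgeR adjusted p = 0.0616) and without the second (0.18, edgeR adjusted p = 0.0677). Ctbp2, at 88.7 to 90.1 CPM in brain and 91.1 to 94.2 CPM in cerebellum, had a change of 0.05 (95% interval -0.03 to 0.13, edgeR adjusted p = 0.191).

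The direction for Cdyl and Ctbp2 turned with the scaling. Scaling by total counts alone in place of TMM moved the median of all genes by -0.21 on the log2 scale, the share of called genes that were higher in cerebellum from 49.6% to 41.4%, Cdyl to -0.02 (edgeR adjusted p = 0.772) and Ctbp2 to -0.16 (edgeR adjusted p = 7.2e-04). Wiz, Ehmt1, Ehmt2, Zfp644 and Ctbp1 were lower in cerebellum under both scalings.

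Ratios of 2 members within a sample do not depend on that scaling. Counted per base of exon, the ratio of Wiz to Ehmt2 was 0.405 ± 0.0095 (SD, n = 3) in WT male brain, 0.402 ± 0.0154 (n = 2) in WT female brain and 0.406 ± 0.0124 (n = 3) in WT cerebellum, and the ranges of all 3 groups overlapped. In Het tissue it was 0.269 ± 0.0089 (n = 3), 0.264 ± 0.00443 (n = 2) and 0.302 ± 0.00214 (n = 3) in the same order. The Het ratios lay below all WT ratios, and those of Het cerebellum, from 0.301 to 0.305, lay above those of the Het brains, at most 0.279.

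The ratio of Ehmt1 to Ehmt2, the paired subunits of the heterodimer, was 0.491 ± 0.0185 (SD, n = 3) in WT male brain and 0.317 ± 0.0147 (n = 3) in WT cerebellum. It was 0.518 ± 0.0233 and 0.320 ± 0.00456 in the Het samples of the same tissues, so the ratios separated by tissue and overlapped between genotypes in each. The ratio of Wiz to Zfp644, both zinc finger partners of the heterodimer, was 2.47 ± 0.187 in WT male brain, 1.56 ± 0.0477 in Het male brain, 1.88 ± 0.0632 in WT cerebellum and 1.20 ± 0.0231 in Het cerebellum (n = 3 each). Which gene of this pair was higher in Het tissue depended on the length used. Divided by the longest annotated transcript, Wiz was below Zfp644 in Het cerebellum, at 11.5 against 14.9 CPM per kilobase. By that length the means were level in Het male brain, and Wiz stayed above Zfp644 in WT male brain and WT cerebellum. With 3 samples a group an exact permutation test of such ratios cannot go below a two-sided p of 0.10, so none was run.

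**Figure D3:**
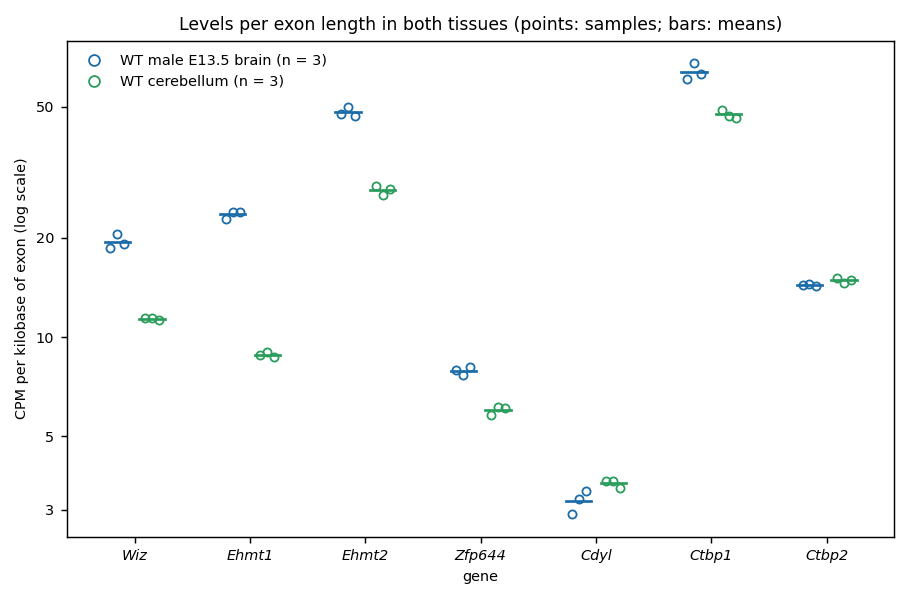
CPM per kilobase of exon (y axis, log scale) of each of the 7 genes (x axis) in WT male E13.5 brain and WT cerebellum. Points are samples and bars are means of 3. Ctbp1 and Ehmt2 lead in both tissues, and Ehmt1 drops from 23.6 to 8.86 CPM per kilobase, below Wiz and Ctbp2.

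Levels of different genes can be compared only per length, here as CPM per kilobase of the union of annotated exons. In WT male brain the order was Ctbp1 at 63.8 ± 3.52 (SD, n = 3), Ehmt2 at 48.1 ± 1.70, Ehmt1 at 23.6 ± 0.687, Wiz at 19.5 ± 0.959, Ctbp2 at 14.4 ± 0.115, Zfp644 at 7.91 ± 0.238 and Cdyl at 3.18 ± 0.255. In WT cerebellum it was Ctbp1 at 47.4 ± 1.45 (SD, n = 3), Ehmt2 at 28.0 ± 0.873, Ctbp2 at 14.9 ± 0.252, Wiz at 11.4 ± 0.0471, Ehmt1 at 8.86 ± 0.162, Zfp644 at 6.03 ± 0.178 and Cdyl at 3.61 ± 0.103. No neighbours in either order overlapped. Ehmt1 thus ranked 3 in brain and 5 in cerebellum. Divided by the longest annotated transcript instead, the order in WT male brain did not move, and in WT cerebellum Zfp644, at 13.5, passed Ehmt1, at 12.1 CPM per kilobase. The place of Wiz rests on a length that counts all its exon bases, 22.7% of which are shared with antisense genes. If reads over those bases were left out of the counts, its levels and ratios per length would be too low. Whether they were was not tested, so the rank of Wiz beside Ehmt1 and Ctbp2 is not settled.

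The other genes of the pathway were 48 genes in 6 lists: other H3K9 methyltransferases and their cofactors, H3K9 demethylases, readers of the mark, the CtBP corepressor complex, zinc finger and E2F6 complex proteins reported with G9a/GLP, and zinc finger relatives of Wiz. In E13.5 brain none of them passed the edgeR test between genotypes, with 47 tested in males, 47 in females and 48 over both sexes, and 8, 5 and 10 of them had an unadjusted p under 0.05, where 8.45%, 6.40% and 12.0% of all genes did. DESeq2 called 1 of them over both sexes, Zfp518b (0.13, DESeq2 adjusted p = 0.0134; edgeR adjusted p = 0.0963), a zinc finger protein that binds G9a, and none in either sex alone. The median over the 48 was 0.03 over both sexes, beside 0.00 for all genes.

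In cerebellum 5 of the 48 passed, 4 higher and 1 lower in Het, beside the background of 5.25% of genes. An unadjusted edgeR p under 0.05 was found for 15 of the 48, where 19.9% of all genes had one. Lcor, a corepressor that binds CtBP, rose from 13.7 ± 1.22 to 17.1 ± 1.37 CPM (SD, n = 3 and 3; log2 fold change 0.32, edgeR adjusted p = 0.0218). Mga, a scaffold of the E2F6 complex, rose (0.17, edgeR adjusted p = 0.0172), as did Jmjd1c, a member of the KDM3 demethylase family (0.14, edgeR adjusted p = 0.035), and Zfp292, a relative with widely spaced zinc fingers (0.13, edgeR adjusted p = 0.0389). Ring1, a ubiquitin ligase of Polycomb complexes, fell (-0.20, edgeR adjusted p = 0.0443). All 5 calls were lost without the first Het, the first WT or the third WT sample, with edgeR adjusted p between 0.0508 and 0.203, and in the fit of all 16 samples.

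Between the tissues, 36 of the 48 were lower in WT cerebellum than in WT male brain, 8 were higher and 4 did not pass, against 43.6% of all genes lower and 42.9% higher, with a median of -0.69 beside -0.02 for all genes tested. Scaled by total counts, 40 were lower and 7 higher. All 6 genes in the list of other methyltransferases and their cofactors were lower, by most for Suv39h2 (-1.98, from 24.4 to 6.08 CPM) and for Trim28, the corepressor that recruits Setdb1 (-1.20, from 481.3 to 208.9 CPM). Among the 11 demethylases, 7 were lower, led by Kdm1a (-1.82) and Kdm3a (-1.54), and 3 were higher, with Kdm4d (1.58) at under 1 CPM in both tissues and Jmjd1c (0.67) from 173.0 to 275.1 CPM. Of the 6 readers, 4 were lower, led by Uhrf1 (-6.37, from 105.2 to 1.26 CPM), a factor of replicating cells, and Cbx5, which encodes HP1α (-1.50). Cdyl2, the paralogue of Cdyl, was higher (1.28), and Mphosph8 was higher with TMM (0.11) and lower with total counts (-0.10).

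In the CtBP list 11 of 13 were lower, beside 43.6% of all genes, led by the CoREST gene Rcor2 (-5.34, from 145.0 to 3.57 CPM) and Zfp217 (-3.17), and Rreb1 alone was higher (2.84), under both scalings. In the list of zinc finger and E2F6 proteins 6 of 10 were lower, led by Zfp518b (-2.63) and Rnf2 (-2.10), and Max (0.98) and L3mbtl2 (0.34) were higher. Both relatives of Wiz were lower, Zfp292 by 1.58 and Rlf by 0.91 on the log2 scale. Each of these named tissue differences passed the edgeR test.

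**Figure D4:**
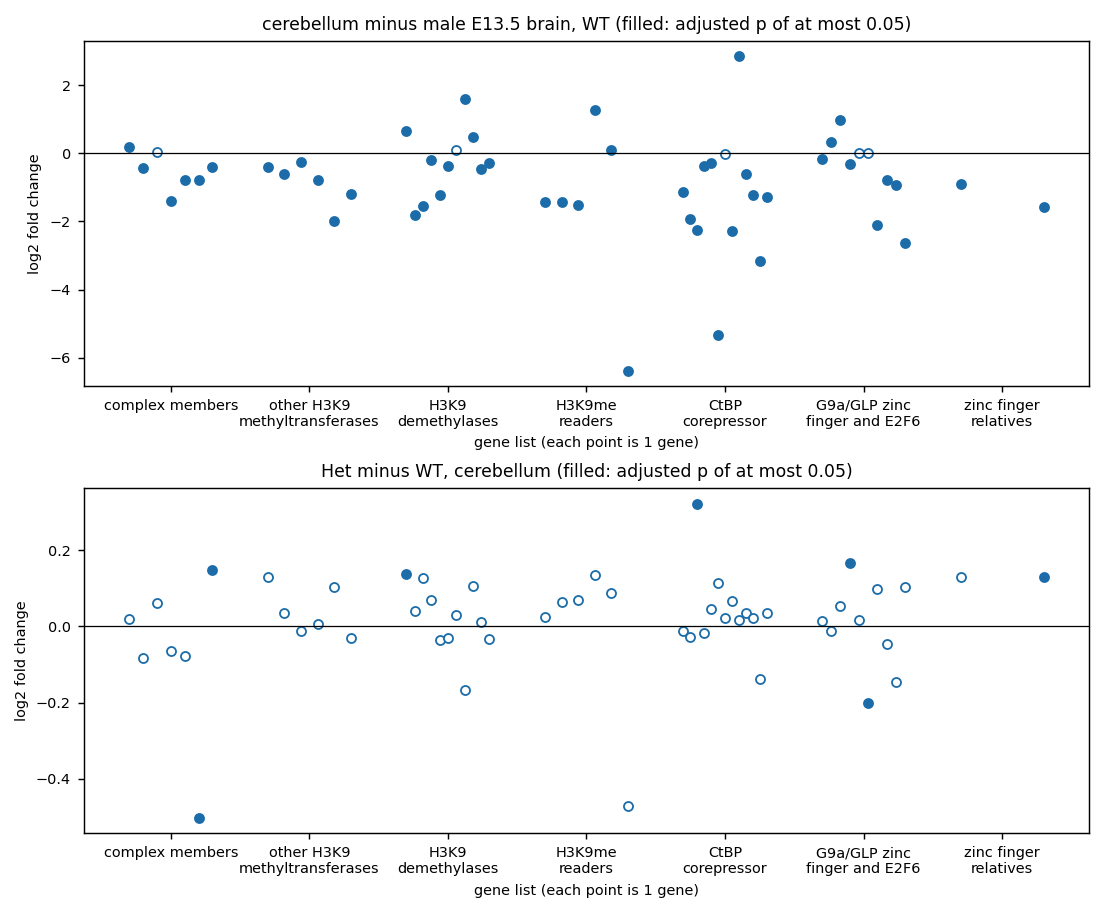
Log2 fold change (y axis) of each gene in the complex and in the 6 pathway lists (x axis), for WT cerebellum minus WT male E13.5 brain (upper panel) and for Het minus WT in cerebellum (lower panel), with a different scale in each panel. Filled points passed the edgeR test. Most points in the upper panel are filled and below 0, and 5 pathway genes in the lower panel are filled.

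Over the 16 samples, the genes whose pattern of log2 CPM about their own mean was nearest to that of Wiz were Csf2ra, Samd11, Hs3st2, Map10 and Rsph3b, with root mean square differences of 0.156 to 0.213 among 17955 genes. For the other members the 5 nearest genes lay closer, at 0.029 to 0.057. Csf2ra, a subunit of a cytokine receptor, had mean levels of 13.6 CPM in WT and 7.58 CPM in Het male brain, and of 8.04 and 5.44 CPM in cerebellum. The study lists Csf2ra as decreased in Het brain and cerebellum, and Samd11 in Het brain. Hs3st2 and Rsph3b, with group means of 0.629 to 4.39 CPM, did not pass the edgeR test between genotypes in male brain, brain of both sexes or cerebellum. Of the partners, Ehmt2 ranked 166 and Ctbp1 515 in nearness to Wiz, and Zfp644, Ehmt1, Ctbp2 and Cdyl ranked 3774 or below. These ranks describe samples that share tissues and genotypes, and no test was made of them.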

How the data were processed

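PolyA RNA was sequenced as single-end reads from unstranded TruSeq libraries. The authors mapped the reads to mm10 with Tophat 2.0.11 and counted them over gene exons with htseq-count 0.6.1. They deposited 1 table a sample of raw counts for each Ensembl gene, without normalization. The counting mode and strand setting are not given in the sources used here. Of 41388 identifiers, 40254 were in GENCODE M21, and the other 1134 held at most 0.171% of the counts of a sample.

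Only the samples of a comparison entered its fit, across all genes, with edgeR 4.0.16 in R 4.3.3: TMM factors, filterByExpr with a minimum count of 10, the quasi-likelihood test and Benjamini-Hochberg adjustment. A gene was called at an adjusted p of at most 0.05. Standard errors were the log2 fold change over the root of F, and 95% intervals used the t distribution of the fit. The p-values measure only the spread between these samples. Log2 CPM for likeness had a prior count of 2. Python 3.11.15 with pandas 2.3.3 made the summaries. Fits were tested on simulated data.

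Alternatives were DESeq2 1.42.0, its type of size factors (RLE), no filter, all samples in 1 fit, replicate number as a block, other samples for the tissue comparison, the limits of 0.7 and 1.3 on the ratio that the study used, the longest transcript as length and leaving out each sample. Scaling by total counts was added after seeing the data. The members and lists were chosen with earlier results of these data known. Named genes were the 7 members, genes of the lists called between genotypes, the 2 with the largest called tissue difference in each direction in each list, and the 5 nearest to Wiz.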

Additional observations from a re-analysis of the deposited data

How the results depend on the processing

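The count of members past the test was 1 in male brain and over both sexes under all alternatives and 0 for the genotype by tissue term (0 by DESeq2 also, and 3 at an unadjusted p under 0.05 in edgeR). In female brain it was 1, and 0 to 1 when a sample was left out. In cerebellum it was 2, 1 to 2 when a sample was left out, and 0 with the limits of 0.7 and 1.3 on the ratio. With edgeR, Wiz had a ratio of 0.706 and Zfp644 one of 1.11, while the study called Wiz there with DESeq. Between the tissues it was 6, 5 to 6 when a sample was left out, 5 with DESeq2, 7 with the Het samples, and 3 with the limits on the ratio (Wiz, Ehmt1 and Ehmt2).

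Samples of the same number did not deviate together: correlations of their residuals ran from -0.13 to 0.02, and in no comparison were all above 0.1. With the replicate block the female count was 0, where Wiz had an adjusted p of 0.056 (edgeR), and the block changed no other count of members. Of the 48 pathway genes, DESeq2 called 3 between genotypes in cerebellum, against 5 by edgeR.

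Directions turned for genes that did not pass the test and lay near 0 when a sample was left out: Cdyl ran from -0.017 to 0.12 in male brain, from -0.025 to 0.05 in cerebellum and from -0.109 to 0.025 for the genotype by tissue term, Ctbp1 from -0.071 to 0.005 in male brain, from -0.014 to 0.033 in female brain and from -0.031 to 0.006 over both sexes, and Ehmt2 from -0.03 to 0.005 over both sexes. With total counts the tissue difference of Cdyl was -0.024 and that of Ctbp2 -0.161; the TMM factors were 0.906 to 0.916 in cerebellum and 1.053 to 1.067 in brain. Of 769 refitted fold changes of members and named list genes, 664 kept their direction and side of the threshold.

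Replicates differed by 2.11 to 5.05 times the variance of counting alone (chi-square per degree of freedom) in male brain and cerebellum and by 10.29 and 11.21 times in female brain, so depth alone does not set the error, and the 2 samples a group in females give the widest intervals. Protein was not measured.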
